A study of Mus musculus with 24 samples.

Results

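The genes described here encode the collagens, the laminins, the proteins that bind them and the enzymes and inhibitors that cut or protect them. They were taken by gene name from the array annotation: collagen chains, laminin chains, fibrillins, fibronectin (Fn1), decorin (Dcn), lumican (Lum), lysyl oxidase (Lox), matrix metalloproteinases (MMPs), their tissue inhibitors (TIMPs) and the ADAMTS proteases. Of the 105 gene names on the array that matched, 67 had a probe in the submitters' processed table, and these 67, of 21652 gene names in that table, are the members. Total liver RNA was hybridised to 24 one-colour arrays, 1 per mouse, in 4 groups of 6 male mice aged 12 weeks and killed at ZT16, that is 16 h after lights on. LWT mice were floxed p110α littermates without Cre (p110αhep+/+), and LKO mice carried floxed p110α with albumin-Cre (p110αhep-/-). Albumin-Cre is used to remove this catalytic subunit of PI3-kinase from hepatocytes. Whether the other cells of the liver keep it was not tested here. Mice of all 4 groups carried the floxed allele. Fed mice ate ad libitum (LWT_Fed, LKO_Fed), and fasted mice had no food for the last 24 h (LWT_Fasted, LKO_Fasted). The comparisons ask how fasting changes the matrix genes in each genotype, how the genotypes differ in each state, and whether the fasting difference itself depends on genotype.

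Values are normalized probe signals on a log2 scale, and a difference of 1 is a 2-fold change. A gene is called higher or lower where limma's Benjamini-Hochberg adjusted p, taken over all 32595 probes, was at most 0.05. Each array found 54.7 to 63.0% of its spots well above background. Pik3ca, which encodes p110α, was not lower in the arrays labelled LKO. It was higher in LKO_Fed (12.54 ± 0.26, SD, n = 6) than in LWT_Fed (11.91 ± 0.21) by 0.58 (adjusted p = 0.0015), while the fasted groups lay at 12.26 ± 0.19 in LKO and 12.28 ± 0.14 in LWT (-0.02, adjusted p = 0.926), with an interaction of -0.60 (adjusted p = 0.0302). The position of its probe relative to the deleted exons was not determined, so the probe does not check the deletion. Albumin, which marks hepatocytes, lay between 18.93 and 19.01 in all 24 arrays, at the top of the quantile-normalized scale, where the scaling leaves little room to differ. Of the other hepatocyte markers, Ttr was lower after fasting (-0.17 in LWT and -0.37 in LKO) and lower in LKO than in LWT (-0.21 fed and -0.41 fasted), Apoa1 was higher in fed LKO than in fed LWT (0.28), and Apob was higher after fasting in LWT (0.24). In whole liver, fewer cells of a type and less RNA per cell cannot be told apart.

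Collagens are trimers of α chains. Fibrillar collagens form the banded fibres of the interstitial matrix, whereas type IV collagen forms the sheet-like network of basement membranes together with the laminins, which are heterotrimers of an α, a β and a γ chain. In the liver, hepatic stellate cells and portal fibroblasts make most of the fibrillar collagen, sinusoidal endothelium lies on a sparse matrix without a continuous basement membrane, and hepatocytes secrete fibronectin into plasma. MMPs and ADAMTS enzymes cut matrix proteins, and TIMPs block them.

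The sequences upstream of Lamb3 and Col27a1 are shown because these are the members with the largest fasting differences. They are the 250 bases before the start site in the RefSeq promoter table (GRCm38.p6), read 5′ to 3′, at chr1:193301744-193301993 (plus strand) for Lamb3 and chr4:63215162-63215411 (plus strand) for Col27a1. Capitals mark a match to the GC box, GGGCGG.
Lamb3: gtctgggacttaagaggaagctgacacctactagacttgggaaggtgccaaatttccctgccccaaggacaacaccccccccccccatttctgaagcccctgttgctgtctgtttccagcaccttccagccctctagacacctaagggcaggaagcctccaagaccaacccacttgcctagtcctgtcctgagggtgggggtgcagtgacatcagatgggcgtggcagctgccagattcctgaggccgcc
Col27a1: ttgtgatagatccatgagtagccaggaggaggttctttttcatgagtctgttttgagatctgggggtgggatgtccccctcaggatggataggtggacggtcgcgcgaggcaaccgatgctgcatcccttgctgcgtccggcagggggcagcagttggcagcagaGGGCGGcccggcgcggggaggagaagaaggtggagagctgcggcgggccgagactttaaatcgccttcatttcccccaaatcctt

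Both strands of the upstream windows were searched for 6 motifs: the TATA box (TATAAA), the CCAAT box (CCAAT), the GC box, the E-box (CACGTG), the forkhead core (TGTTTAC) and the nuclear receptor half-site (AGGTCA). The Lamb3 window held none of the 6, and the Col27a1 window held 1 GC box. RefSeq windows were found for 46 of the 67 members (51 windows). The GC box was present in 31 of these 51 windows and in 32.7% of all 32851 windows of the same length, and the CCAAT box in 17 of 51 and in 33.8%. A TATA box was found in 5 of the 51 (12.4% of all windows), a nuclear receptor half-site in 4 (14%), a forkhead core in 1 (3.17%) and an E-box in 0 (6.02%).

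Across the members, fasting lowered more genes than it raised. In LWT, 6 of the 67 members were higher in fasted than in fed liver (8.96%), against 19.5% of all 21652 genes, and 14 were lower (20.9%), against 21.3% of all genes. The share of lower members was therefore near that of all genes, and the median difference was -0.03 for the members and -0.01 for all genes. In LKO, 8 members were higher (11.9%, all genes 19.3%) and 21 were lower (31.3%, all genes 21.5%), with medians of -0.10 and -0.02. Without LWT_Fasted replicate 6, 12 members were called for fasting in LWT instead of 20. The share of all genes called without that array was not counted. The plot of fasting differences shows that most members lay close to 0 and that a few lay far from it.

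**Figure D1:**
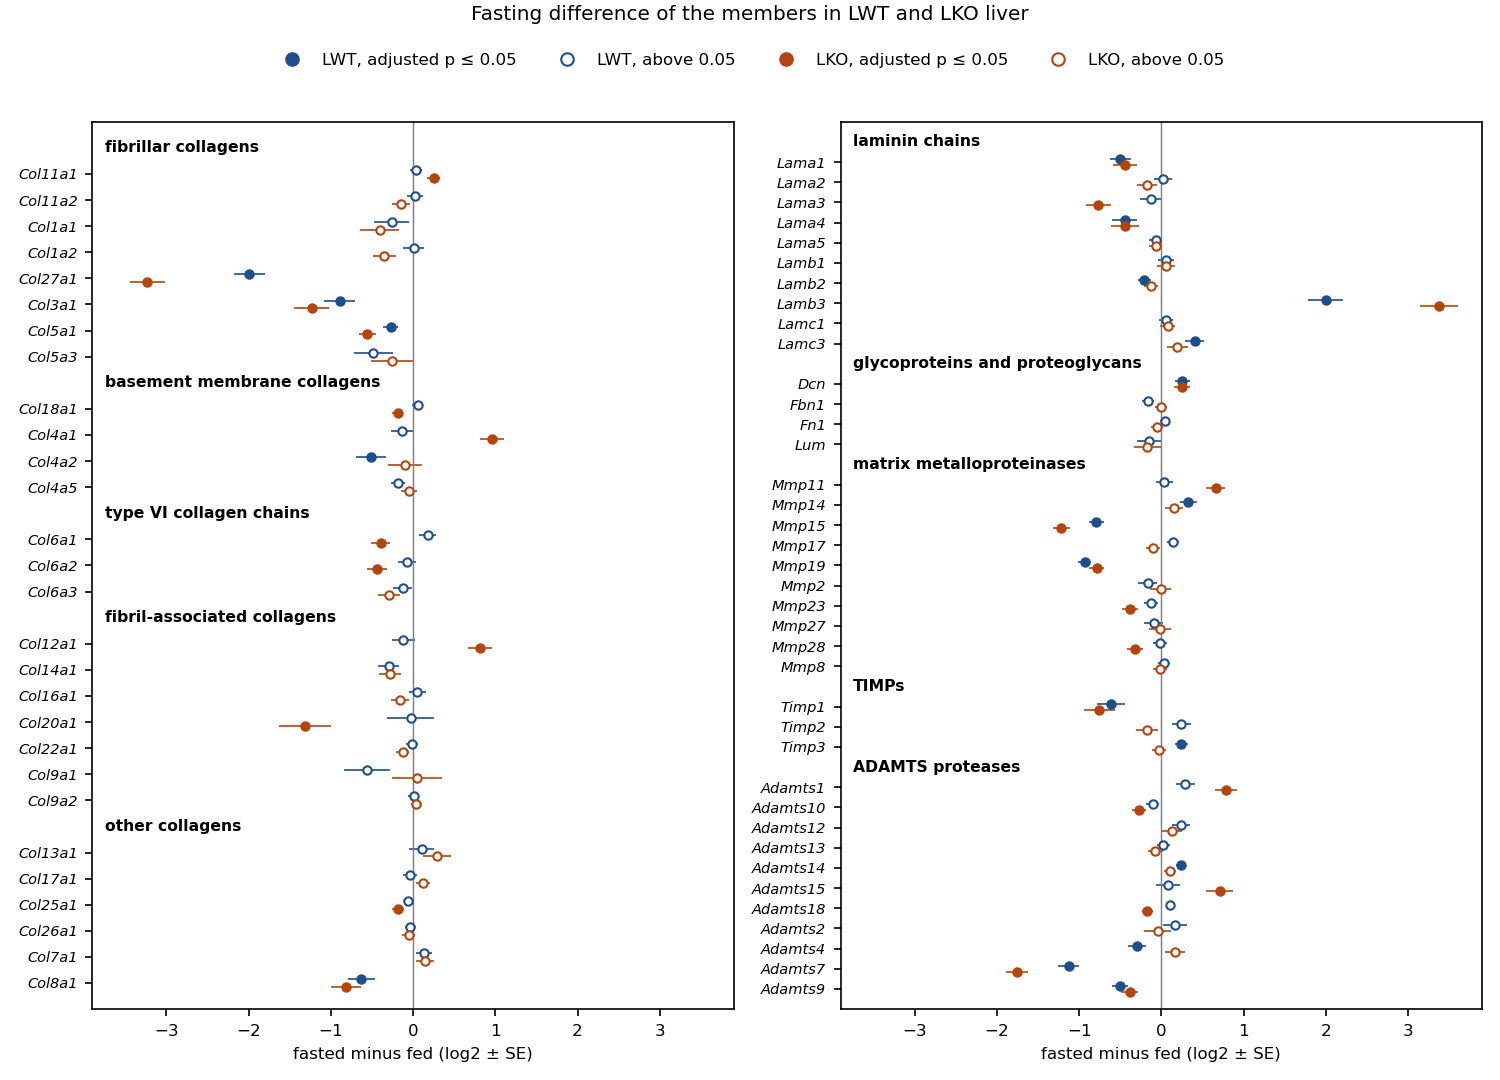
Fasting difference (fasted minus fed, log2, horizontal axis) of the members reported here in LWT (blue) and LKO (orange), grouped by role, with the standard error of the limma fit as the bar and filled points for adjusted p of at most 0.05. Lamb3 lies farthest to the right in both genotypes (2.00 and 3.38) and Col27a1 farthest to the left (-1.99 and -3.23).

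Genotype called fewer members. In fed mice, 1 of 67 was higher in LKO (1.49%, all genes 8.69%) and 6 were lower (8.96%, all genes 7.48%), with a median of -0.02 for members and -0.01 for all genes. In fasted mice, 5 were higher (7.46%, all genes 9.82%) and 11 were lower (16.4%, all genes 10.4%), with a median of -0.11 for the members and -0.0043 for all genes. The fasting difference itself depended on genotype for 8 members, 4 in each direction (5.97% each way, against 3.93% and 3.67% of all genes). These counts moved with the processing and with single arrays. Shares of all genes were not counted under those settings, so the counts that follow cannot be set against the shares above. The fed comparison called 14 members with the authors' log2 table (2 higher and 12 lower) and 11 with the mean of a gene's probes (1 higher and 10 lower), but 2 members without LWT_Fed replicate 5 and 4 without LKO_Fed replicate 4, and the interaction called 4 without LWT_Fed replicate 5 and 5 without LWT_Fasted replicate 6.

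Among the 8 fibrillar collagens, fasting lowered 3 in each genotype, raised none in LWT and raised 1, Col11a1, in LKO, beside 21.3% lower and 19.5% higher of all genes in LWT and 21.5% and 19.3% in LKO. Col27a1, which encodes the chain of type XXVII collagen, fell most (probe at chr4:62995485-62995544, mm9, the build of the array annotation). Its signal ran from 11.05 to 11.44 with a median of 11.30 in LWT_Fed, and from 7.94 to 9.92 with a median of 9.26 in LWT_Fasted. In LKO it ran from 10.44 to 11.14 with a median of 10.74 when fed, and from 6.57 to 7.94 with a median of 7.48 when fasted. Fed and fasted arrays did not overlap in either genotype, and every LKO_Fasted array was below the lowest LWT_Fasted array. The fall was 3.98-fold in LWT (log2 -1.99 ± 0.19, SE, adjusted p = 3.6e-08) and 9.4-fold in LKO (-3.23 ± 0.21, adjusted p = 9.74e-11). On the 3 slides taken one at a time the difference lay between -2.64 and -1.80 in LWT and between -3.61 and -2.84 in LKO. Fasted LKO liver was lower than fasted LWT liver by 1.78 on the log2 scale (adjusted p = 5.11e-06), and the interaction was -1.24 (adjusted p = 0.0108). A second Col27a1 probe, dimmer and well above background in only 4 of 6 LWT_Fasted and 2 of 6 LKO_Fasted arrays, was also lower after fasting in both genotypes (-2.37 and -2.06) and lower in fed LKO than in fed LWT (-0.57), a difference that the brighter probe gave as -0.54 (adjusted p = 0.0658). On this probe the fasted genotypes differed by -0.26 (adjusted p = 0.271) and the interaction was 0.31 (adjusted p = 0.428), neither called and the latter opposite in sign to that of the brighter probe, with fasted signals near background in both genotypes. With the mean of both probes the interaction was not called either (-0.47, adjusted p = 0.139).

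Col3a1, the chain of type III collagen, the fine reticular fibre of the liver, had a median of 10.32 (9.97 to 10.74) in LWT_Fed and 9.33 (9.25 to 9.51) in LWT_Fasted. The medians were 10.03 (9.83 to 10.98) in LKO_Fed and 9.001 (8.52 to 9.82) in LKO_Fasted. No fasted array of either genotype reached the fed arrays of its own genotype. It fell 1.86-fold in LWT (-0.89 ± 0.19, adjusted p = 0.000741) and 2.35-fold in LKO (-1.23 ± 0.21, adjusted p = 7.48e-05), and the genotypes did not differ by the test in either state. A second, dim Col3a1 probe was not called in any comparison (-0.09 in LWT and -0.23 in LKO). Col5a1, a type V chain that sits inside type I fibres, fell in both genotypes (-0.27 and -0.56). Col11a1, a minor fibrillar chain, lay near background. It was well above background in 0 of 6 LKO_Fed and 5 of 6 LKO_Fasted arrays and at least 1.16-fold higher in the latter (adjusted p = 0.0127), a bound set against the lowest signal well above background on each array.

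The type I chains, the main fibre of scar tissue, gave no call in the fit described here. Col1a1 ran from 7.38 to 8.57 (median 7.66) in LWT_Fed and from 7.30 to 7.46 (median 7.37) in LWT_Fasted, and from 7.29 to 8.59 (median 7.43) in LKO_Fed and from 6.91 to 8.44 (median 7.29) in LKO_Fasted. The groups overlapped, and 1 or 2 arrays stood high in each group but LWT_Fasted. The fasting difference had a 95% confidence interval of -0.70 to 0.18 in LWT and -0.90 to 0.08 in LKO, and the 2 other Col1a1 probes were not called either. Col1a2 was at 0.01 in LWT (interval -0.26 to 0.28) and -0.35 in LKO (interval -0.64 to -0.05, adjusted p = 0.0558). Its LKO value passed the threshold with the authors' log2 table (adjusted p = 0.0463), normexp correction (0.0404), the slide row as a term (0.033) or the replicate number as a block (0.0322). It also passed without any 1 of 6 arrays (LKO_Fasted replicates 3 and 4, LKO_Fed replicates 3, 5 and 6, and LWT_Fed replicate 3), with a difference of up to -0.46 on leaving out LKO_Fasted replicate 3.

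Markers of the cells that make fibrillar collagen were counted in the same way, beside 19.5% higher and 21.3% lower of all genes after fasting in LWT and 19.3% and 21.5% in LKO. Of 12 measured markers of hepatic stellate cells, 1 was higher and 3 were lower after fasting in LWT (median -0.08), and 1 was higher and 6 were lower in LKO (median -0.22). Lrat, which esterifies the retinol that stellate cells store, differed by -0.90 and -0.95, and Ngfr, a surface receptor of these cells, by -0.85 and -1.03. The 12 markers ran from -0.96 to 0.31 in LWT and from -1.03 to 0.44 in LKO. Between genotypes, 2 were higher and 0 lower in fed LKO, beside 8.69% and 7.48% of all genes. In fasted LKO, 1 was higher and 1 lower, beside 9.82% and 10.4%. The summed signal of this list was 14854 to 20785 in LWT_Fed, 13835 to 17782 in LWT_Fasted, 16831 to 23311 in LKO_Fed and 14292 to 21958 in LKO_Fasted, so the groups overlapped. Of 10 portal fibroblast markers, 3 were lower in LWT (median -0.18) and 2 in LKO (median -0.06). Gas6, a ligand of the TAM receptors, differed by -0.85 and -0.70. The summed signal of that list was 9170 to 17352 in LWT_Fed against 5402 to 8225 in LWT_Fasted, and 7532 to 10738 in LKO_Fed against 4982 to 6877 in LKO_Fasted. Summed signals are added on the linear scale, so the brightest markers weigh most. Of these 10 markers, 7 were not called in LWT and 8 in LKO. Of 5 smooth muscle and myofibroblast markers, 1 was higher and 3 were lower in LWT (median -0.40), and 2 were higher and 2 lower in LKO (median -0.0012). Acta2, a smooth muscle actin, fell by 1.05 and 0.91, whereas Myh11, a smooth muscle myosin, rose by 0.81 and 0.97. The part of these cells in the lower collagen signals was not tested.

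**Figure D2:**
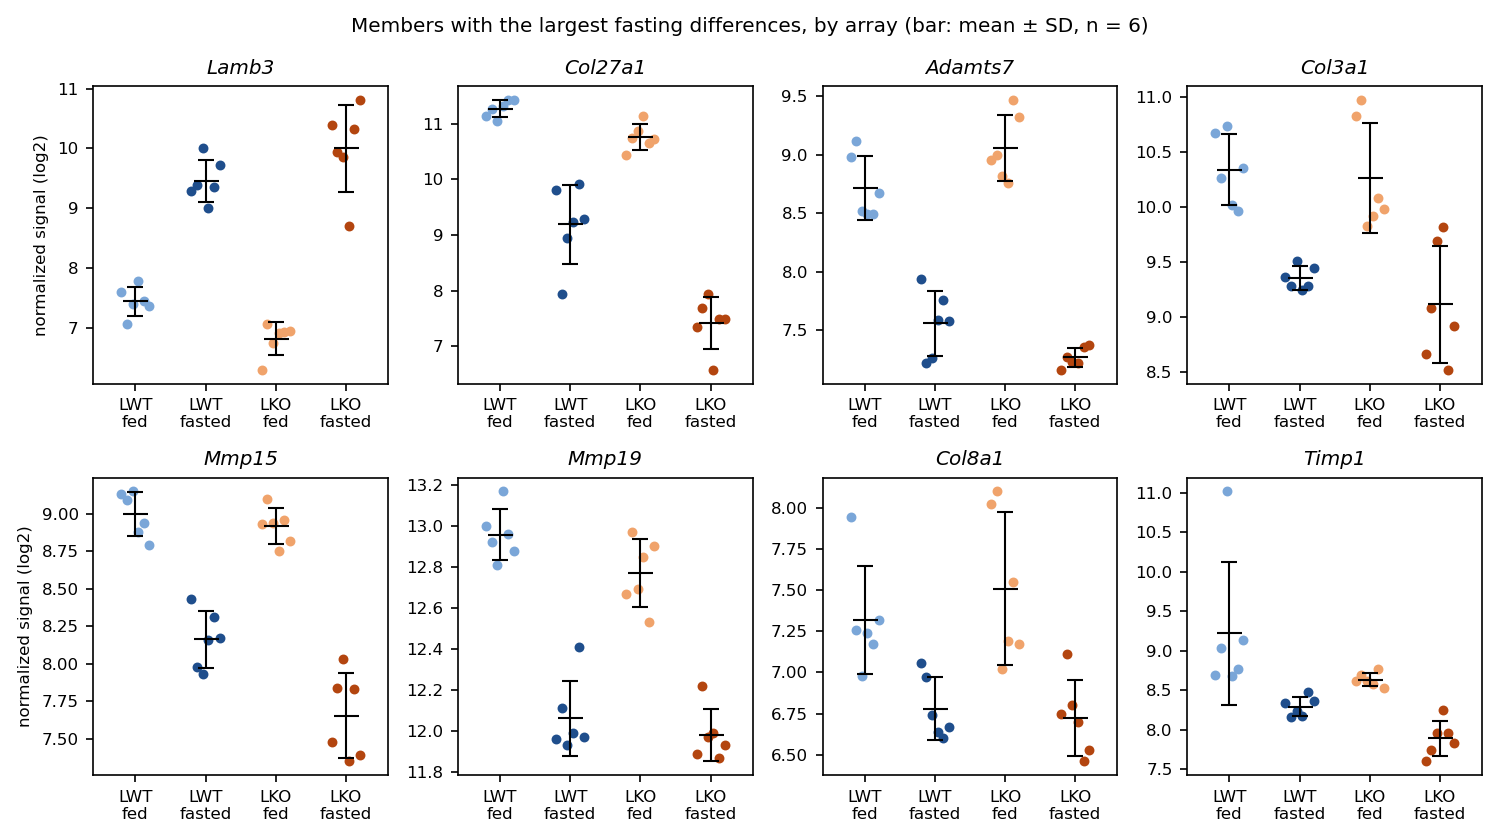
Normalized signal (log2, vertical axis) of members with large fasting differences, by array, in the 4 groups of 6 mice. Points are arrays and the black bar is the mean with its SD. Not every member with a large fasting difference is drawn. In both genotypes the fed and fasted arrays are separate for Lamb3, Col27a1, Adamts7, Col3a1, Mmp15 and Mmp19, and 1 LWT_Fed array stands high for Timp1 at 11.02.

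Col5a3, a type V chain, was lower in LKO in both states. Its median was 10.87 (10.60 to 11.34) in LWT_Fed and 9.65 (8.79 to 10.29) in LKO_Fed, and these arrays did not overlap. Fasted, it was 10.28 (9.73 to 11.11) in LWT and 9.50 (8.91 to 9.77) in LKO, with an overlap at the edge. LKO liver was 2.38-fold lower when fed (-1.25 ± 0.24, adjusted p = 0.00138) and 2.03-fold lower when fasted (-1.02 ± 0.26, adjusted p = 0.00702). The sign was the same on each of the 3 slides. The fasting difference was -0.49 in LWT and -0.25 in LKO, and neither passed the test.

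Of the 4 basement membrane collagens, Col4a1 rose with fasting in LKO alone by the test, and its interaction was called. Col4a1 and Col4a2 encode the 2 chains of the common type IV trimer, and in RefSeq they are transcribed in opposite directions from start sites so close that the first 22 bases of their transcripts overlap. Col4a1 had a median of 9.16 (8.90 to 9.56) in LWT_Fed and 8.97 (8.71 to 9.31) in LWT_Fasted. In LKO its median was 8.65 (8.39 to 8.94) when fed and 9.59 (8.89 to 10.02) when fasted. LWT arrays overlapped between the states, whereas 5 of 6 LKO_Fasted arrays lay above every LKO_Fed array. The difference was -0.14 ± 0.13 in LWT (adjusted p = 0.447) and 0.95 ± 0.15 in LKO (1.94-fold, adjusted p = 1.65e-05), and the interaction was 1.09 ± 0.20 (adjusted p = 0.00189). Fasted LKO liver was above fasted LWT liver by 0.65 (adjusted p = 0.00259). Fed LKO liver was below fed LWT liver by 0.44 (adjusted p = 0.0314), a call that was lost without any 1 of 7 fed arrays (LKO_Fed replicates 3, 4, 5 and 6 and LWT_Fed replicates 1, 5 and 6; -0.45 to -0.38, adjusted p = 0.0563 to 0.0761) and with no filter (0.062).

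Col4a2 was not called higher in any comparison. Its medians were 9.65 (9.43 to 10.25) in LWT_Fed, 9.12 (8.65 to 9.77) in LWT_Fasted, 9.11 (8.56 to 9.60) in LKO_Fed and 9.06 (8.49 to 9.47) in LKO_Fasted. The fasting difference was -0.51 ± 0.18 in LWT (adjusted p = 0.028), and -0.10 ± 0.20 in the LKO mice (adjusted p = 0.734). The LWT call was lost without LWT_Fasted replicate 3, LWT_Fasted replicate 6 or LWT_Fed replicate 6 (-0.45 to -0.35, adjusted p = 0.0625 to 0.142) and with no filter (0.0571). Fed LKO was below fed LWT by 0.54, which missed the threshold (adjusted p = 0.0543), and this difference was called under 6 alternatives (-0.60 to -0.53, adjusted p = 0.0257 to 0.0487) and without any 1 of 6 arrays (adjusted p = 0.0292 to 0.0472). Within each array, the signal of Col4a1 minus that of Col4a2 averaged -0.59 ± 0.11 (SD) in LWT_Fed, -0.22 ± 0.20 in LWT_Fasted, -0.48 ± 0.17 in LKO_Fed and 0.53 ± 0.32 in LKO_Fasted. All 6 LKO_Fasted arrays were above all 6 LKO_Fed arrays on this difference, which shifted by 1.01 with fasting in LKO (exact two-sided permutation p = 0.00216, the smallest that 6 against 6 arrays can give, adjusted p = 0.00577 over 4 comparisons). It shifted by 0.37 with fasting in LWT (exact p = 0.00433, adjusted p = 0.00577), by 0.75 between fasted genotypes (exact p = 0.00433, adjusted p = 0.00577) and by 0.11 between fed genotypes (exact p = 0.216). This pair was chosen for comparison after its values were seen, so these values are a description.

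**Figure D3:**
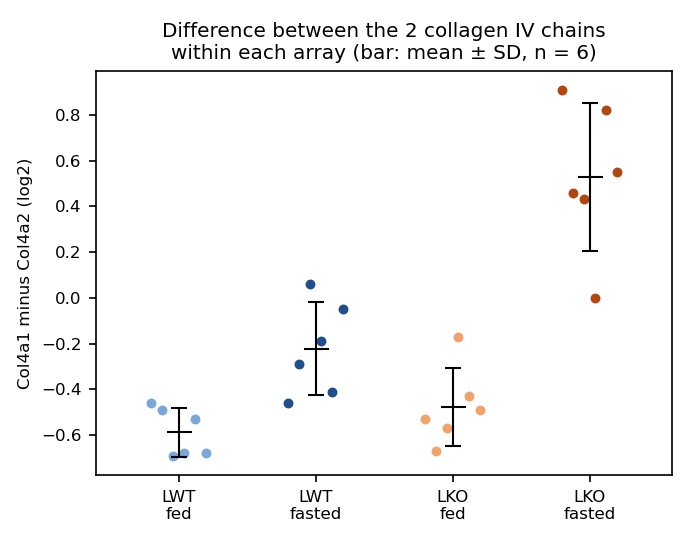
Col4a1 minus Col4a2 within each array (log2, vertical axis) in the 4 groups; points are arrays, and the black bar is the mean with its SD (n = 6). The LKO_Fasted arrays (0.0019 to 0.91) lie above all LKO_Fed arrays (-0.67 to -0.17), and since the probes differ only shifts between groups can be read.

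Col18a1, whose C-terminal fragment is endostatin, ran from 16.10 to 16.63 in LKO_Fed and from 16.03 to 16.31 in LKO_Fasted, a difference of -0.19 ± 0.07 (adjusted p = 0.0316). The groups overlapped, and the call was lost without any 1 of 5 LKO arrays (LKO_Fasted replicates 1, 5 and 6 and LKO_Fed replicates 5 and 6; adjusted p = 0.0508 to 0.0875). It was also lost under 6 alternatives (adjusted p = 0.0529 to 0.186, with -0.12 under 75th percentile scaling), and on 1 of the 3 slides the difference was 0.02.

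The type VI chains form the beaded filaments that surround cells. Col6a1 had medians of 9.55 (9.34 to 9.95) in LWT_Fed and 9.78 (9.33 to 10.17) in LWT_Fasted, and of 9.63 (9.55 to 10.15) in LKO_Fed and 9.37 (9.19 to 9.67) in LKO_Fasted. It was lower after fasting in LKO (-0.39 ± 0.12, adjusted p = 0.00904) and not in LWT (0.18, adjusted p = 0.183), with an interaction of -0.57 ± 0.16 (adjusted p = 0.029). The fasting call in LKO was lost without the slide term (-0.35, adjusted p = 0.0573), and the interaction without the slide term (0.126), without array weights (0.074) and with no filter (0.0776). The interaction was lost without any 1 of 6 arrays (LKO_Fasted replicates 5 and 6, LKO_Fed replicate 1, LWT_Fasted replicates 3 and 6, LWT_Fed replicate 5; -0.57 to -0.48). Fasted LKO liver was below fasted LWT liver by 0.34 (adjusted p = 0.037), which was lost without LKO_Fasted replicates 1, 2, 5 or 6 or LWT_Fasted replicates 3 or 6 (-0.37 to -0.26), and under 4 alternatives (adjusted p = 0.065 to 0.147). Col6a2 fell with fasting in LKO (-0.44), and Col6a3 did not pass the test in either genotype (-0.13 and -0.29).

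Of the 7 fibril-associated collagens, none was called for fasting in LWT, where 19.5% of all genes were higher and 21.3% lower. Col20a1 had a median of 7.80 (7.35 to 8.67) in LKO_Fed and 6.59 (6.15 to 7.09) in LKO_Fasted, which did not overlap, a 2.49-fold fall (-1.32 ± 0.31, adjusted p = 0.00179). In LWT it ran from 6.57 to 7.84 fed and from 6.28 to 7.74 fasted (-0.03). The interaction of -1.29 did not pass the test (adjusted p = 0.0678). Col12a1, a collagen of dense connective tissue under tension, was dim, well above background in 4 to 5 arrays of each group, with medians of 5.98, 5.86, 5.85 and 6.64 in LWT_Fed, LWT_Fasted, LKO_Fed and LKO_Fasted. It was higher after fasting in LKO (0.81 ± 0.15, adjusted p = 0.000132), higher in fasted LKO than in fasted LWT (0.78, adjusted p = 0.000647), and its interaction was 0.93 ± 0.20 (adjusted p = 0.00709). In LKO_Fasted 1 array of 6, at 5.71, did not share the rise. Col14a1, which decorates type I fibres, was lower in LKO in both states (-0.41 and -0.39).

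Of the other collagens, Col8a1, a short-chain network collagen of vessel walls, fell with fasting in both genotypes. Its medians were 7.25 (6.98 to 7.94) and 6.70 (6.60 to 7.06) in LWT fed and fasted, and 7.37 (7.02 to 8.10) and 6.72 (6.46 to 7.11) in LKO. The difference was -0.63 ± 0.16 in LWT (adjusted p = 0.00317), and -0.82 ± 0.18 in the LKO mice (adjusted p = 0.000763), with an edge overlap of fed and fasted arrays in each. Col25a1, a transmembrane collagen near background, was the single member called higher in fed LKO than in fed LWT liver (0.21, adjusted p = 0.0417). It was well above background in 5 of 6 LKO_Fed but only 1 of 6 LWT_Fed arrays, so 0.21 is not a measured size of the difference, and the call was lost without any 1 of 11 arrays (adjusted p = 0.0524 to 0.124, highest without LWT_Fed replicate 5). With the scanner's processed signal the value was 0.63 and not called (adjusted p = 0.353), and the call was also lost with normexp correction, the detection filter, no slide term or only the compared groups (adjusted p = 0.0539 to 0.0804).

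Among the 11 laminin chains, Lamb3 had the largest fasting difference in both genotypes. It encodes the β3 chain, which joins the α3 chain (Lama3) in an anchoring laminin of epithelia. Its brightest probe (chr1:195170009-195170068, mm9) ran from 7.06 to 7.78 with a median of 7.42 in LWT_Fed, and from 8.9997 to 10.01 with a median of 9.37 in LWT_Fasted. In LKO it ran from 6.29 to 7.06 with a median of 6.92 when fed, and from 8.70 to 10.82 with a median of 10.14 when fasted. Every fasted array was above every fed array of both genotypes. The rise was 3.99-fold in LWT (2.00 ± 0.21, adjusted p = 1.36e-07) and 10.4-fold in LKO (3.38 ± 0.23, adjusted p = 2.02e-10). By slide it was 1.60 to 2.32 in LWT and 2.31 to 3.78 in LKO. The interaction was 1.38 ± 0.31 (adjusted p = 0.0102).

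The genotype differences of Lamb3 were smaller and opposite in sign in the 2 states. Fed LKO liver was 1.62-fold lower than fed LWT liver (-0.70, adjusted p = 0.0317) and fasted LKO liver was 1.6-fold higher than fasted LWT liver (0.68, adjusted p = 0.0389). The fed call was lost without LKO_Fed replicates 1 or 3 or LWT_Fed replicates 1, 4 or 5 (-0.70 to -0.56, adjusted p up to 0.102) and under 4 alternatives (-0.67 to -0.52, adjusted p up to 0.0894). The fasted call was lost without LKO_Fasted replicates 1, 5 or 6, LWT_Fasted replicates 1, 4 or 5 or LWT_Fed replicate 5 (0.50 to 0.69, adjusted p up to 0.13) and under 5 alternatives (0.545 to 0.73, adjusted p up to 0.149), and on 1 of the 3 slides the fasted genotypes differed by -0.24. A second Lamb3 probe gave 1.83 and 2.94 for fasting in LWT and LKO, 0.61 between fasted genotypes and an interaction of 1.11, all called, and -0.50 between fed genotypes, which was not. The remaining Lamb3 probe was not well above background in any LKO_Fed array, and in LWT its fasting difference was not called (0.16). On this probe the fasted genotypes differed by 0.07, which was not called (adjusted p = 0.744), unlike on the other probes. It was called for fasting in LKO (0.66, adjusted p = 0.000234) and between fed genotypes (-0.44, adjusted p = 0.0153). Both of these are set against LKO_Fed arrays near background.

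Lama3 was not called higher after fasting. It had medians of 8.68 (8.51 to 9.06), 8.48 (8.26 to 9.02), 8.81 (8.57 to 9.04) and 8.09 (7.32 to 8.20) in LWT_Fed, LWT_Fasted, LKO_Fed and LKO_Fasted. All LKO_Fasted arrays were below all other arrays. The signal fell with fasting in LKO (-0.76 ± 0.15, adjusted p = 0.000269), not by the test in LWT (-0.13, adjusted p = 0.492), and the interaction of -0.64 missed the threshold (adjusted p = 0.0572).

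Lamc3, a γ chain, also followed genotype at a low signal. Its median was 6.25 (5.99 to 6.45) in LWT_Fed and 6.54 (6.40 to 6.80) in LWT_Fasted, against 5.70 (5.43 to 6.18) in LKO_Fed and 5.90 (5.42 to 6.12) in LKO_Fasted. All 12 LWT arrays were well above background, but only 3 of the LKO_Fed and 4 of the LKO_Fasted arrays were. LKO was lower by 0.52 when fed (adjusted p = 0.00435) and by 0.73 when fasted (adjusted p = 0.00027). With LKO arrays near background, these values are not measured sizes of the difference. Fasting raised the signal in LWT by 0.41 (adjusted p = 0.00635). The fasting call was lost with the scanner's processed signal (0.70, adjusted p = 0.124) and the fed genotype call with 75th percentile scaling (-0.31, adjusted p = 0.0554). The α1 and α4 chains fell with fasting in both genotypes, Lama1 by 0.50 and 0.44, and Lama4 by 0.45 in each. The β1 and γ1 chains are parts of most laminins. Lamb1 had medians between 9.41 and 9.64 and Lamc1 between 9.78 and 9.86 across the 4 groups, and neither was called in any comparison (95% intervals of the fasting difference in LWT -0.14 to 0.26 for Lamb1 and -0.12 to 0.23 for Lamc1). For Lamb1, a second probe was called for fasting in LKO (0.26) and another between fed genotypes (0.58).

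Of 6 measured cholangiocyte markers, cells that rest on a laminin-rich basement membrane, 3 were lower in fed LKO than in fed LWT liver (median -0.30) and 2 in fasted LKO (median -0.29), beside 7.48% and 10.4% of all genes. Spp1, osteopontin, differed by -1.50 and -2.11, and Epcam by -0.40 and -0.42. The summed signal of this list was 2154 to 3487 in LWT_Fed, 1782 to 2261 in LWT_Fasted, 855 to 1906 in LKO_Fed and 562 to 1239 in LKO_Fasted, so the LKO arrays did not overlap the LWT arrays of the same state. This sum is on the linear scale, where a bright marker can carry most of it. Between genotypes, 3 of the 6 markers were not called in fed mice and 4 in fasted mice. Epcam was well above background in 15 of 24 arrays. Of 12 endothelial markers, 2 were lower after fasting in LWT, beside 21.3% of all genes. After fasting in LKO, 2 were higher and 1 lower, beside 19.3% and 21.5%. In fed LKO, 2 were lower than in fed LWT (Lyve1 by 0.88 and Tek by 0.51), beside 7.48%. The part of these cells in the laminin and type IV collagen values was not tested.

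**Figure D4:**
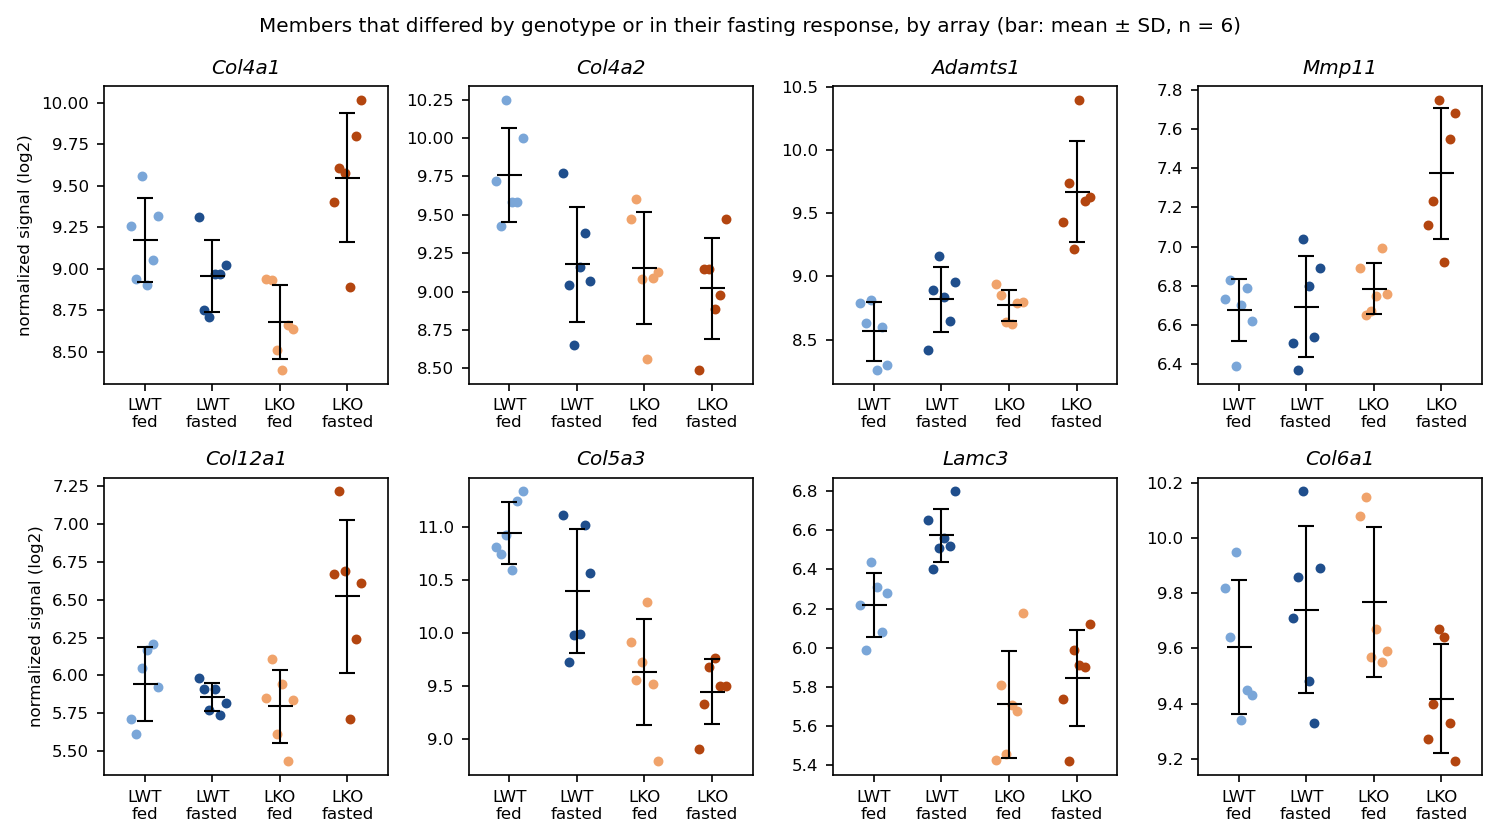
Normalized signal (log2, vertical axis) by array, in the 4 groups of 6 mice, of members that differed between genotypes or in their fasting response; points are arrays and the black bar is the mean with its SD. Col4a1, Adamts1, Mmp11 and Col12a1 are highest in LKO_Fasted, while Col5a3 and Lamc3 are lower in both LKO groups than in LWT.

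Among fibronectin, fibrillin-1 and the small leucine-rich proteoglycans, only Dcn was called. Fn1, which hepatocytes secrete, had medians of 15.92, 15.998, 16.03 and 15.96 in LWT_Fed, LWT_Fasted, LKO_Fed and LKO_Fasted, with single arrays between 15.70 and 16.30. No comparison was called, and the 95% interval of the fasting difference was -0.09 to 0.17 in LWT and -0.20 to 0.09 in LKO. Of its 3 further probes, 1 was called between fed genotypes (0.30). Dcn, which binds type I fibres, had a median of 14.62 (14.49 to 14.86) in LWT_Fed and 14.89 (14.82 to 15.04) in LWT_Fasted, and of 14.64 (14.43 to 14.94) in LKO_Fed and 14.94 (14.56 to 15.25) in LKO_Fasted. The rise of 0.25 in LWT had an adjusted p of 0.0255, and that of 0.25 in LKO had one of 0.0435. With the replicate number as a block both calls were lost (0.23, adjusted p = 0.0559, and 0.24, adjusted p = 0.0619). The LWT call was also lost without LWT_Fasted replicates 3 or 6 or LWT_Fed replicate 5 (adjusted p = 0.067 to 0.0901), and the LKO call was lost without any 1 of 11 arrays, with the highest adjusted p, 0.147, without LKO_Fasted replicate 3, and also with only the compared groups (0.127), the slide row (0.0545), no filter (0.0502) or without LKO_Fasted replicates 1 and 2 (0.18, adjusted p = 0.23). Lum was not called (fasting difference -0.15 in LWT, interval -0.46 to 0.17, and -0.17 in LKO, interval -0.52 to 0.18), nor was Fbn1 (-0.16 and -0.01). In LWT, Fbn1 passed without array weights (adjusted p = 0.0485), with only the compared groups (0.0484), with the replicate block (0.0376), with the authors' log2 table (0.0441) and without LKO_Fasted replicate 5 (0.045).

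**Figure D5:**
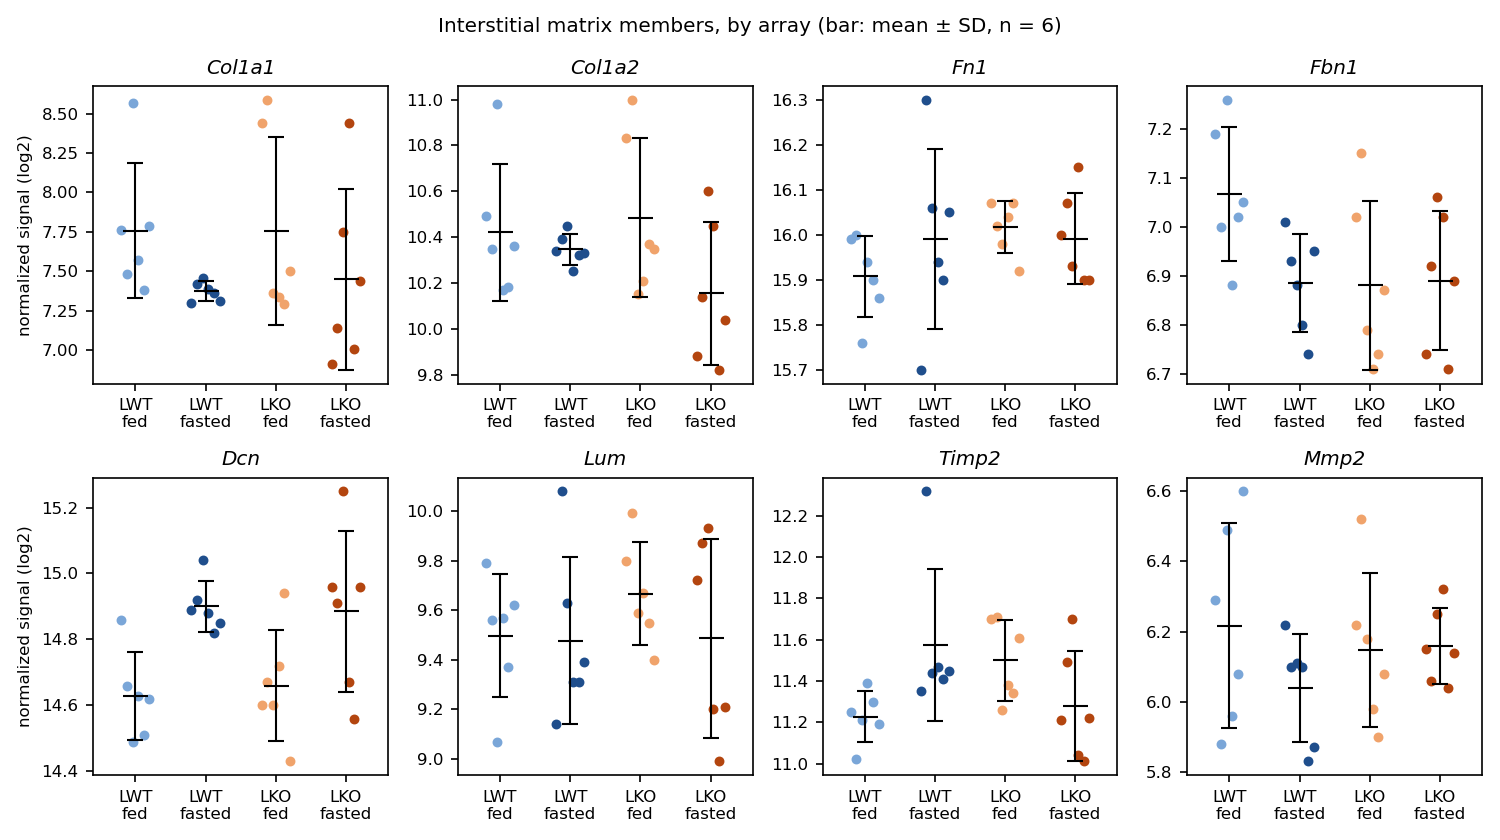
Normalized signal (log2, vertical axis) by array, in the 4 groups of 6 mice, of interstitial matrix members looked for by name; points are arrays and the black bar is the mean with its SD. Fed and fasted arrays of a genotype overlap for all 8 genes drawn.

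Among the 10 MMPs, fasting lowered Mmp19 and Mmp15 in both genotypes. Mmp19, a secreted enzyme that cuts basement membrane proteins, had medians of 12.94 (12.81 to 13.17) and 11.98 (11.93 to 12.41) in LWT fed and fasted, and of 12.77 (12.53 to 12.97) and 11.95 (11.87 to 12.22) in LKO. Fed and fasted arrays were separate in each genotype. It fell 1.91-fold in LWT (-0.93 ± 0.08, adjusted p = 1.11e-08) and 1.72-fold in LKO (-0.78 ± 0.09, adjusted p = 4.33e-07), and its second probe gave -0.70 and -0.56. Mmp15, a membrane-bound MMP, had medians of 9.02 (8.79 to 9.15) and 8.17 (7.93 to 8.43) in LWT, and of 8.94 (8.75 to 9.10) and 7.66 (7.35 to 8.03) in LKO. It fell 1.73-fold in LWT (-0.79 ± 0.09, adjusted p = 6.99e-07) and 2.33-fold in LKO (-1.22 ± 0.10, adjusted p = 4.32e-09), and fasted LKO was below fasted LWT by 0.48 (adjusted p = 0.00177). The interaction of -0.43 did not pass (adjusted p = 0.066).

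Mmp11, or stromelysin-3, was higher in LKO than in LWT in the fasted state, with an overlap at the edge. Its medians were 6.72 (6.39 to 6.83) in LWT_Fed, 6.67 (6.37 to 7.04) in LWT_Fasted, 6.75 (6.65 to 6.99) in LKO_Fed and 7.39 (6.92 to 7.75) in LKO_Fasted. It rose 1.58-fold with fasting in LKO (0.66 ± 0.12, adjusted p = 8.04e-05) and differed by 0.04 in LWT (adjusted p = 0.816), and fasted LKO exceeded fasted LWT by 0.69 (adjusted p = 0.000204). The interaction, 0.63 ± 0.16 (adjusted p = 0.0178), was lost without LWT_Fed replicate 5 (0.57, adjusted p = 0.0596). Mmp14, the membrane enzyme that activates pro-MMP2, was higher after fasting in LWT by 0.33 (adjusted p = 0.0105), with fed arrays from 7.78 to 8.48 and fasted arrays from 7.80 to 8.39. That call was lost without LWT_Fasted replicate 6 (0.23, adjusted p = 0.087), without array weights (0.19, adjusted p = 0.228) and with no filter (adjusted p = 0.0592), and on 1 of the 3 slides the difference was -0.03. Mmp2, gelatinase A, gave no call (-0.17 in LWT, interval -0.41 to 0.08, and -0.01 in LKO, interval -0.28 to 0.26). Mmp23 and Mmp28 fell in LKO only by the test (-0.38 and -0.32), and their interactions, -0.26 and -0.30, were not called.

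Of the TIMPs, Timp1 fell with fasting. Its medians were 8.90 (8.68 to 11.02) in LWT_Fed, 8.29 (8.16 to 8.48) in LWT_Fasted, 8.62 (8.53 to 8.77) in LKO_Fed and 7.90 (7.60 to 8.25) in LKO_Fasted. Fed and fasted arrays did not overlap in either genotype. The difference was -0.61 ± 0.17 in LWT (adjusted p = 0.00593), and -0.76 ± 0.19 in the LKO mice (adjusted p = 0.00255). LWT_Fed replicate 3, at 11.02, stood far above the other LWT_Fed arrays. Without it, the LWT difference was -0.51 (adjusted p = 0.000126), and fasted LKO, not called below fasted LWT with all arrays (-0.44, adjusted p = 0.102), was lower by 0.45 (adjusted p = 0.0029). The fasted genotypes were also called with only the compared groups, a fit that leaves out that array too (-0.45, adjusted p = 0.0176). Timp3, which is held in the matrix, was higher after fasting in LWT by 0.24 (adjusted p = 0.0193, lost without LWT_Fasted replicate 6 or LWT_Fed replicate 5, adjusted p = 0.0506 to 0.0841), and fasted LKO was below fasted LWT by 0.35 (adjusted p = 0.0067, lost with only the compared groups, 0.0527). Its second probe gave 0.25 and -0.39, both called. Timp2 was not called (0.24 in LWT and -0.17 in LKO). LWT_Fasted replicate 2 was at 12.32 for Timp2, where the next array of its group was at 11.47. The Timp2 interaction of -0.42 (adjusted p = 0.16) passed the threshold without LKO_Fasted replicate 3 (-0.54, adjusted p = 0.0454), and the LWT fasting value without array weights (0.35, adjusted p = 0.0481).

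The 11 ADAMTS proteases are secreted enzymes with thrombospondin repeats. Adamts7, which cuts cartilage oligomeric matrix protein, had medians of 8.60 (8.49 to 9.12) in LWT_Fed, 7.58 (7.22 to 7.94) in LWT_Fasted, 8.98 (8.76 to 9.47) in LKO_Fed and 7.25 (7.16 to 7.37) in LKO_Fasted. All fasted arrays were below all fed arrays. It fell 2.18-fold in LWT (-1.13 ± 0.12, adjusted p = 2.57e-07) and 3.38-fold in LKO (-1.76 ± 0.14, adjusted p = 1.26e-09). The interaction of -0.63 (adjusted p = 0.0423) was lost without any 1 of 11 arrays (adjusted p = 0.0571 to 0.125, highest without LWT_Fed replicate 5) and under 5 alternatives (adjusted p = 0.0503 to 0.0728). Adamts9, which cuts versican and aggrecan, fell in both (-0.50 and -0.38).

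Adamts1, which cuts versican, was highest in LKO_Fasted. Its medians were 8.62 (8.27 to 8.81) in LWT_Fed, 8.86 (8.42 to 9.16) in LWT_Fasted, 8.80 (8.62 to 8.94) in LKO_Fed and 9.62 (9.22 to 10.40) in LKO_Fasted. Every LKO_Fasted array lay above all other arrays. It rose 1.73-fold with fasting in LKO (0.79 ± 0.13, adjusted p = 4.27e-05), and fasted LKO exceeded fasted LWT by 0.73 (adjusted p = 0.000366). In LWT the difference was 0.29 (adjusted p = 0.0528), and the interaction of 0.50 did not pass (adjusted p = 0.09). The LWT value passed under 5 alternatives (adjusted p = 0.0339 to 0.0423), and without LKO_Fasted replicates 3 or 4, LWT_Fasted replicate 1 or LWT_Fed replicate 1 (0.29 to 0.38), and the interaction passed without LKO_Fasted replicate 3 (0.61, adjusted p = 0.024) and without array weights (0.65, adjusted p = 0.0433). Adamts15 rose in LKO (0.71 ± 0.16, adjusted p = 0.00105) and was at 0.08 in LWT, and the interaction of 0.62 was not called (adjusted p = 0.0809). Adamts18, near background, had an interaction of -0.28 (adjusted p = 0.0489) that was lost without any 1 of 14 arrays (adjusted p = 0.0593 to 0.113, highest without LWT_Fed replicate 5). It was also lost with normexp correction (-0.13, adjusted p = 0.229), without array weights (0.11), with no filter (0.107), with the replicate block (0.0588) and with the slide row (0.0508).

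Other genes of the same pathways were described from lists chosen by function, and their counts stand beside 19.5% higher and 21.3% lower of all genes after fasting in LWT (median -0.01) and 19.3% and 21.5% in LKO (median -0.02). Of 24 measured genes for collagen folding and fibre assembly, fasting raised 3 and lowered 10 in LWT (median -0.15) and raised 2 and lowered 7 in LKO (median -0.22). Serpinh1, the collagen chaperone HSP47, fell from a median of 9.82 (9.40 to 9.90) to 8.39 (8.24 to 8.64) in LWT and from 9.62 (9.45 to 10.05) to 8.45 (8.10 to 8.82) in LKO, with no overlap (2.43-fold, adjusted p = 2.03e-08, and 2.31-fold, adjusted p = 1.43e-07). Ppib, a prolyl isomerase of the same compartment, fell by 0.54 and 0.92. P3h4, a partner of the collagen prolyl and lysyl hydroxylases, rose by 0.36 in LWT and by 1.08 in LKO, and its interaction was called (0.72, adjusted p = 0.0272). Of 22 basement membrane and interstitial partners, 1 was higher and 5 were lower in LWT (median -0.03), and 3 were higher and 5 lower in LKO (median 0.01). Nid2, which links laminin to type IV collagen, fell by 0.98 and 0.89.

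Matrix receptors were divided, with 5 of 23 higher and 4 lower after fasting in LWT (median -0.03) and 4 higher and 4 lower in LKO (median -0.12). Itgb3, the integrin β3 chain, rose by 0.86 and 1.0035, and Itga6, the α6 chain of laminin receptors, fell by 0.75 and 0.65. Of 25 TGF-β signalling genes, 9 were higher and 5 lower in LWT (median 0.05), and 10 were higher and 2 lower in LKO (median 0.08). Inhbe, the activin βE chain made by hepatocytes, had a median of 11.86 in LWT_Fed, 12.71 in LWT_Fasted, 11.004 in LKO_Fed and 13.79 in LKO_Fasted. It rose 2.09-fold in LWT and 7.08-fold in LKO, with an interaction of 1.76 (adjusted p = 0.00236). Inhba, the activin βA chain, fell by 1.78 and 1.17, and Ctgf, a matricellular protein, rose by 1.22 and 0.92. Among 16 genes of the plasmin system and protease inhibitors outside the members, 3 were higher and 2 lower in LWT (median 0.01), and 2 higher and 5 lower in LKO (median -0.11). Reck, a membrane inhibitor of MMPs, fell by 1.16 and 0.59 and was lower in LKO than in LWT by 1.06 in fed mice and 0.49 in fasted mice.

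The 38 names without a probe in the processed table were not analysed further. Their probes were well above background on 0 arrays for 20 names and on at most 6 of 24 arrays for 37, the exception being Col6a5, at 9 arrays. Lox, the enzyme that cross-links collagen, and Mmp9, gelatinase B, reached 2 arrays each, and Mmp12, the macrophage elastase, Mmp13, a collagenase, and Mmp3, stromelysin-1, reached 0. Of the 67 members, 53 were well above background on all 24 arrays.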

How the data were processed

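Liver RNA of 24 mice was labelled with 1 dye and hybridised to Agilent 8x60K mouse arrays. The authors deposited, per array, the Feature Extraction 10.10.1.1 output (version per the submitters' processing notes), whose spot intensity values are linear, and a table of log2 values, quantile normalized per the study's methods. Here, log2 of the median spot intensity of the 32595 probes in that deposited table was quantile normalized and fitted in limma 3.58.1 (R 4.3.3) with 4 group means, the slide (3 slides, each with 2 arrays per group) and array weights, with Benjamini-Hochberg adjustment of the p-values across the whole table. A gene is represented by its brightest probe on average over the arrays. The fit was also run on simulated arrays with differences added to 200 probes, and the outcome is not given here. Arrays carry no read depth, so their number limits the precision. Named members were the 4 called with the largest increase and the 4 with the largest decrease per comparison, plus genes of liver matrix looked for by name, and other members named were chosen after their values were seen. The members and lists were chosen with earlier results of these data known. The limma p-values test differences between group means against the spread between these samples, with variance information shared across probes. Same-numbered samples of 2 groups did not deviate together (correlations -0.182 to 0.276), so numbers were not used to pair samples. Some genes are not reported here.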

Additional observations from a re-analysis of the deposited data

Results flagged for a closer look

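In 8 of the 124 groups of 6 arrays examined, for 31 named members, 1 array lay far from the rest by Dixon's test, where chance gives about 1 in 20. LWT_Fed replicate 3 was high for Timp1 (11.02, nearest other array 9.13), Col1a1 (8.57, nearest 7.79) and Mmp14 (8.48, nearest 7.93). On that array the summed portal fibroblast signal was 17352, against 9170 to 12048 in the other LWT_Fed arrays, smooth muscle was 6615 (4153 to 4786), mesothelium 857 (249 to 502) and stellate cells 16401 (14854 to 20785), and their part in the 3 values was not tested. The other arrays were LWT_Fed replicate 6 for Lamb1 (9.61), LKO_Fed replicate 2 and LKO_Fasted replicate 1 for Lamc1 (9.69 and 9.56), LKO_Fasted replicate 2 for Mmp19 (12.22) and LWT_Fasted replicate 2 for Timp2 (12.32).

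The fasting difference depended on genotype, by the interaction term in limma, for 8 members. It was larger (more positive) in LKO for Lamb3 (1.38), Col4a1 (1.09), Col12a1 (0.93) and Mmp11 (0.63), and more negative in LKO for Col27a1 (-1.24), Adamts7 (-0.63), Col6a1 (-0.57) and Adamts18 (-0.28).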

How the results depend on the processing

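Across 13 alternatives, no named value changed direction while called. Of 47 called values of named members, 29 kept their call under each alternative, 32 kept it without each array and 27 in both. Of 75 values not called, 10 passed under at least 1 setting. Requiring a fold change over 1.5 in addition left 8 members for fasting in LWT, 15 for fasting in LKO, 2 between fed genotypes and 9 between fasted genotypes. The fed genotypes differed in 14 members with the authors' log2 table and in 11 with the mean of a gene's probes, and the interaction called 5 with no filter. Leaving out 1 array at a time gave 12 to 23 members for fasting in LWT, 24 to 30 for fasting in LKO, 2 to 9 between fed genotypes, 11 to 17 between fasted genotypes and 4 to 10 for the interaction. With the replicate number as a block the counts were 20, 28, 10, 17 and 8 in that order, against 20, 29, 7, 16 and 8 without the block. Without LKO_Fasted replicates 1 and 2 they were 20, 26, 7, 12 and 8. Scaling to the 75th percentile moved the median of all genes to at most -0.06 (fasting in LKO). The cause of these changes was not tested. Shares of all genes called were not counted under these settings, so the counts of members cannot be set against those of all genes. Members near background are limited by their signal.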

Other observations

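The genes next to 5 members with large differences in RefSeq order were looked at after the members' values were seen. G0s2, the inhibitor of the lipase ATGL, lies beside Lamb3. It was higher after fasting by 2.06 in LWT (adjusted p = 5.57e-06, limma) and by 3.62 in LKO (adjusted p = 6.26e-09). Fed LKO was below fed LWT by 1.53 (adjusted p = 0.00121), and the fasted genotypes differed by 0.03, which was not called, unlike for Lamb3. Camk1g, on the other side of Lamb3, was not called for fasting (-0.07 in LWT and 0.17 in LKO). Irs2, an adaptor of the insulin receptor, lies beside Col4a1. It was higher after fasting by 2.60 in LWT and 1.91 in LKO, and higher in LKO than in LWT by 1.60 in fed and 0.92 in fasted mice, a pattern that Col4a1 did not have in LWT or in fed mice. Beside Col27a1, Kif12 was not called for fasting (-0.17 and -0.24) and Orm1 was lower (-0.58 and -0.53). Beside Adamts7, Morf4l1 was not called (0.11 and 0.13) and Tbc1d2b was called lower in LKO (-0.15 and -0.33). Beside Mmp15, Usb1 was called lower in LKO (-0.09 and -0.26) and Cfap20 was lower in both genotypes (-0.43 and -0.54).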
